A study of Mus musculus with 16 samples.

Results

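The 9 genes described here store, release and move cholesterol and neutral lipid inside cells, and were picked by symbol from a count table of mouse brain with 54532 gene entries. They are Npc1 and Npc2, which export cholesterol from late endosomes and lysosomes, Lipa and Nceh1, which hydrolyse cholesteryl esters, Soat1, which makes them, Dgat1 and Dgat2, which make triglyceride, and Plin2 and Plin3, which coat lipid droplets. All 9 of 9 symbols were present, and all 9 passed the filter on low counts that left 17736 genes. RNA was sequenced in bulk from 16 libraries of female mice aged 9 months, with 4 libraries in each of 4 groups. Animals with an intact cholesterol 25-hydroxylase gene (Ch25h+/+) and animals with homozygous loss of it (Ch25h-/-) were each sequenced without (Tau-) and with (Tau+) the tau transgene. Where values are listed for all groups below, the order is Ch25h+/+ without tau, Ch25h+/+ with tau, Ch25h-/- without tau, Ch25h-/- with tau. The labels name neither the transgene nor its promoter, and do not say whether each library came from a separate animal, so p-values measure the spread between libraries, which may be technical in part.

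Cholesterol that enters a cell in lipoproteins or engulfed debris reaches the lysosome as cholesteryl ester. Acid lipase (Lipa) frees it there, Npc2 binds it in the lumen and hands it to the membrane protein Npc1, and Soat1 in the endoplasmic reticulum re-esterifies any excess for storage in lipid droplets, where perilipins cover the surface and Nceh1 can release it again. Ch25h makes 25-hydroxycholesterol, an oxysterol known to activate Soat1 and to restrain sterol synthesis. In brain, microglia are among the cells that express Npc2 and Lipa, and glial cells that take up myelin or neuronal debris can fill with droplets.

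The upstream sequences of 3 of the genes are shown first because the later results turn on them: Npc2 changed with genotype, Plin2 followed it most closely among the 9, and Lipa lies next to the disrupted Ch25h gene. RefSeq promoter windows were matched for 6 of the 9 genes (Lipa, Soat1, Npc2, Nceh1, Plin2 and Plin3). Npc1, Dgat1 and Dgat2 were not matched. Each sequence runs 5′ to 3′ on the minus strand of GRCm38.p6, from RefSeq, at chr12:84773153-84773362 (Npc2), chr4:86670061-86670309 (Plin2) and chr19:34527475-34527724 (Lipa). The windows cover the 250 bases before the RefSeq start, and bases inside the GENCODE gene are left off, 40 for Npc2 and 1 for Plin2. Capitals mark matches on either strand to CCAAT or to GGGCGG, the CCAAT box and GC box of many promoters.
Npc2: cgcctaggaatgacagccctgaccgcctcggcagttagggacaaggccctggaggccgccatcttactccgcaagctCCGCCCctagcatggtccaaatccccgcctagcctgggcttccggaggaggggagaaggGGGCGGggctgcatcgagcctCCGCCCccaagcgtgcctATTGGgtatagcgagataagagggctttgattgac
Plin2: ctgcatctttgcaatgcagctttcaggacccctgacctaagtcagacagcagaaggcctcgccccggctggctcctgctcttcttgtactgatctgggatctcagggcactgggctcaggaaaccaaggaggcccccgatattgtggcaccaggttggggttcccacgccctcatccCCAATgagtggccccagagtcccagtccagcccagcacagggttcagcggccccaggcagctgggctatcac
Lipa: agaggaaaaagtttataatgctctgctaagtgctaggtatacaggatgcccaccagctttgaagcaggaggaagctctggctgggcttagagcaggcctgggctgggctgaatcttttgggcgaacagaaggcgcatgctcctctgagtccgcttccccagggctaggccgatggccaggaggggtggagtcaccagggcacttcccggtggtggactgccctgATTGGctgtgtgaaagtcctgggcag

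The Npc2 window held 3 matches to GGGCGG, first bases at -173, -114 and -93 from the RefSeq start, and 2 to CCAAT, at -75 and, within the bases left off above, at -6. Plin2 had 1 CCAAT match at -73 and Lipa had 1 at -26. All 6 matched genes held CCAAT, a motif found in 33.8% of 32851 promoter windows of the same length. GGGCGG occurred in 2 of the 6 (Npc2 and Plin3) and in 32.7% of all windows. The lysosomal gene motif core CACGTG occurred in 1 of 6 (Nceh1) against 6.02% of all windows, and its extended form TCACGTGA, which contains that core, occurred in 0 of 6 against 0.785%. No match was found for the DR4 repeat bound by LXR (0.0152% of windows) or for the sterol response element TCACNCCAC (1.05%). A match here is a string of letters in a window and not a measured site. The Plin3 window lies wholly inside the GENCODE gene, so its matches are not upstream of the annotated 5′ end. The CACGTG match of Nceh1 also lies inside its GENCODE gene.

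Counts of the targeted gene followed the labels. Ch25h-/- libraries had 0 Ch25h counts in 8 of 8 cases, while Ch25h+/+ libraries had 5 to 10 without tau and 11 to 30 with it. Prnp, the prion protein gene, whose promoter drives tau in some transgenic lines, ran from 708 to 839 CPM (counts scaled to a common library size) in Tau- and from 1414 to 1935 in Tau+ libraries. Total counts ranged from 15530352 to 25602500 per library. The labels give frontal cortex and the series description gives hippocampus; 5 cortical markers summed to 552 to 751 CPM and 7 hippocampal markers to 331 to 484 CPM. None of these 12 genes was at 0 in any library, and single genes of the lists overlapped in level: Wfs1 of the hippocampal list had a median of 132.5 CPM and Rorb of the cortical list 45.5, while Spink8 of the hippocampal list ran from 0.187 to 4.16 CPM. Summed choroid plexus markers varied from 15.7 to 2746 CPM and spanned wide ranges in all 4 groups. Another difference followed genotype: an rRNA entry (CT010467.1) measured 2289 to 5684 CPM on total counts for 7 libraries, all Ch25h-/-, and 111 to 475 for the remaining 9, which include 1 without Ch25h (Ch25h-/- Tau+ replicate 1). These are called rRNA-rich and rRNA-poor libraries below, and Ch25h loss in Tau- cannot be told apart from this difference. Only Ch25h-/- Tau+ holds both classes, with 3 rRNA-rich libraries and 1 rRNA-poor. Estimates below with library class as a covariate take their class term from these 4 libraries alone. For Ch25h loss in Tau+ such estimates rest on that 1 rRNA-poor library of Ch25h-/-.

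Levels between genes were compared in CPM per kb of merged exon. Nceh1 was the highest at 27.8 ± 2.35 (SD over 16 libraries), followed by Dgat2 at 19.8 ± 2.34. Npc2 stood at 9.88 ± 2.13 and Dgat1 at 9.40 ± 1.21. Npc1 followed at 6.01 ± 0.915, Plin3 at 3.92 ± 0.854 and Soat1 at 3.17 ± 0.549. Lipa stood at 2.72 ± 0.384 and Plin2 at 1.66 ± 0.351. Most neighbours in this order kept it in 16 of 16 libraries; the exceptions were Npc2 over Dgat1 (9 of 16), Plin3 over Soat1 (15 of 16) and Soat1 over Lipa (13 of 16). Npc2 and Dgat1 therefore did not differ beyond their spread. The order of the lower genes rests on the length used: per kb of the longest transcript Lipa ranked 6 of 9 instead of 8. The neutral ester hydrolase Nceh1 thus had the highest level per length and the acid hydrolase Lipa one of the lower levels, as the plot of length-scaled levels shows.

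**Figure D1:**
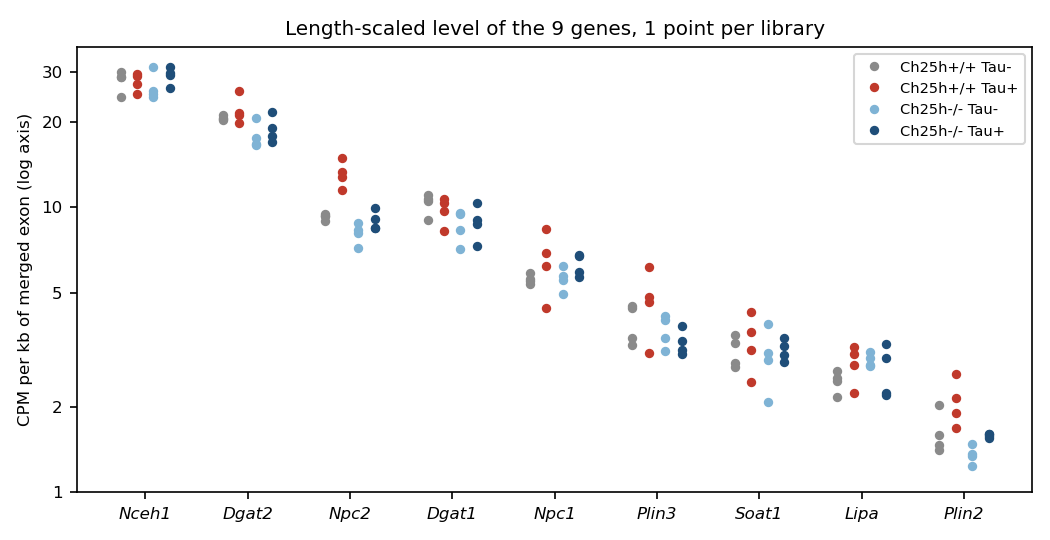
Length-scaled level of each gene (CPM per kb of merged exon, logarithmic axis), 1 point per library and 1 colour per group. Nceh1 lies between 24.4 and 31.1 and Plin2 between 1.24 and 2.61, and only Npc2 has a group, Ch25h+/+ Tau+, that stands clear above the other 3.

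Npc2, the soluble lysosomal carrier that lifts cholesterol out of internal membranes (chromosome 12, 84754562 to 84773152, minus strand, GRCm38), was higher with tau where Ch25h was present, and lower without Ch25h where tau was present. In the Ch25h+/+ Tau- libraries it measured 48.8, 50.6, 50.8 and 51.7 CPM, and in Ch25h+/+ Tau+ 72.6, 69.3, 62.7 and 81.0 CPM. The 4 tau libraries with Ch25h were the 4 highest of all 16. In Ch25h-/- Tau- it measured 44.1, 47.8, 39.3 and 45.3 CPM, and in Ch25h-/- Tau+ 46.1, 45.9, 49.4 and 54.3 CPM. The Ch25h-/- groups overlapped each other, and Ch25h-/- Tau- lay wholly below Ch25h+/+ Tau-.

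With Ch25h present, Npc2 rose 1.41-fold with tau, from 50.5 ± 1.21 to 71.4 ± 7.65 CPM (SD, n = 4 each), a log2 fold change of 0.50 (SE 0.08, edgeR quasi-likelihood adjusted p = 0.00253). It kept this call in 25 of 25 other settings, though those that only drop Ch25h-/- libraries leave the compared groups unchanged. Within Tau+, it fell with Ch25h loss from 71.4 ± 7.65 to 48.9 ± 3.91 CPM, a log2 fold change of -0.55 (SE 0.08, edgeR adjusted p = 0.00191), or 1.46-fold lower. These comparisons share the Ch25h+/+ Tau+ libraries, so they are not independent of each other. The decrease stayed past the threshold in 23 of 25 other settings. The exceptions both concern the rRNA difference and rest on the same 1 rRNA-poor library of Ch25h-/- Tau+. With library class as a covariate the edgeR estimate was -0.63 (adjusted p = 0.194). With the 9 rRNA-poor libraries alone it was also -0.63, which is not a second check. In that 1 library Npc2 measured 46.1 CPM, below all 4 libraries of Ch25h+/+ Tau+.

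With Ch25h absent, the tau difference in Npc2 was 0.15 (95% interval -0.03 to 0.33) and did not pass. Without tau, Ch25h loss gave -0.19 (interval -0.37 to -0.02, edgeR unadjusted p = 0.0351, adjusted p = 0.203). The difference between the 2 tau effects, tested as an interaction, was -0.35 (SE 0.12, interval -0.60 to -0.10), with an unadjusted edgeR p of 0.00876 and an adjusted p of 0.690. It was negative in 23 of 23 other settings and passed in 0 of them. The tau effects with and without Ch25h were thus not shown to differ at the threshold.

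Microglial markers and the astrocyte gene Gfap moved with the same groups. The summed CPM of 8 microglial markers was 235 to 255, 292 to 349, 214 to 259 and 231 to 267 in the 4 groups. Of the 8, 2 rose with tau in Ch25h+/+ and 3 fell with Ch25h loss in Tau+. Of 8 genes of disease-associated microglia, 6 rose and 5 fell in those comparisons, where 1.47% of all genes rose with tau and 2.40% fell with Ch25h loss. The sum of 6 astrocyte markers ran from 950 to 991, 1255 to 2389, 896 to 1181 and 1019 to 1216 CPM. Of the 6, only Gfap passed: it rose with tau in Ch25h+/+ by 2.46 (edgeR adjusted p = 6.133e-05) and fell with Ch25h loss in Tau+ by 1.96 on the log2 scale (edgeR adjusted p = 0.000767). Without Gfap the other 5 summed to 795 to 851, 782 to 1078, 787 to 1018 and 863 to 963 CPM, and the groups of each pairwise comparison overlapped. None of the markers in these 3 lists was at 0 in all libraries. As a share of the microglial sum, Npc2 stood at 20.9 ± 0.748%, 22.6 ± 2.23%, 18.8 ± 2.43% and 19.8 ± 2.08% in the 4 groups (SD, n = 4 each). These shares overlapped between the groups of both tau comparisons. In bulk tissue, a change in the number of cells of a type and a change in RNA per cell cannot be told apart, and the part of these markers in the Npc2 differences was not tested.

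Npc1, the membrane partner that receives cholesterol from Npc2 (chromosome 18, 12189692 to 12236400, minus strand), passed in none of the 5 comparisons. It measured 66.9, 62.6, 63.5 and 61.0 CPM in Ch25h+/+ Tau- and 50.2, 78.5, 95.1 and 70.4 CPM in Ch25h+/+ Tau+. The tau group held both the lowest and the highest of the 16 values and surrounded the control group. In Ch25h-/- Tau- Npc1 measured 56.3, 65.3, 70.6 and 62.7 CPM, and in Ch25h-/- Tau+ 76.4, 67.0, 64.3 and 77.0 CPM. The tau effect was 0.21 (interval -0.06 to 0.49) with Ch25h and 0.16 (-0.12 to 0.44) without it, and Ch25h loss gave 0.01 in Tau- and -0.05 in Tau+. The covariate for library class gave 0.14 and 0.05, and GC correction -0.11 and -0.13, so neither sign was stable. Its exons share 4.52% of their length with Rmc1 and 0.795% with Gm15956, both on the opposite strand, and how the counting treated strand is not given in the sources used here. Per Npc1 count there were 0.797 ± 0.0493 Npc2 counts in Ch25h+/+ Tau- and 1.04 ± 0.340 in Ch25h+/+ Tau+. The ratio was 0.699 ± 0.0982 in Ch25h-/- Tau- and 0.691 ± 0.0680 in Ch25h-/- Tau+. The ratio in Ch25h+/+ Tau+ spread from 0.659 to 1.45, more widely than in the other groups.

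**Figure D2:**
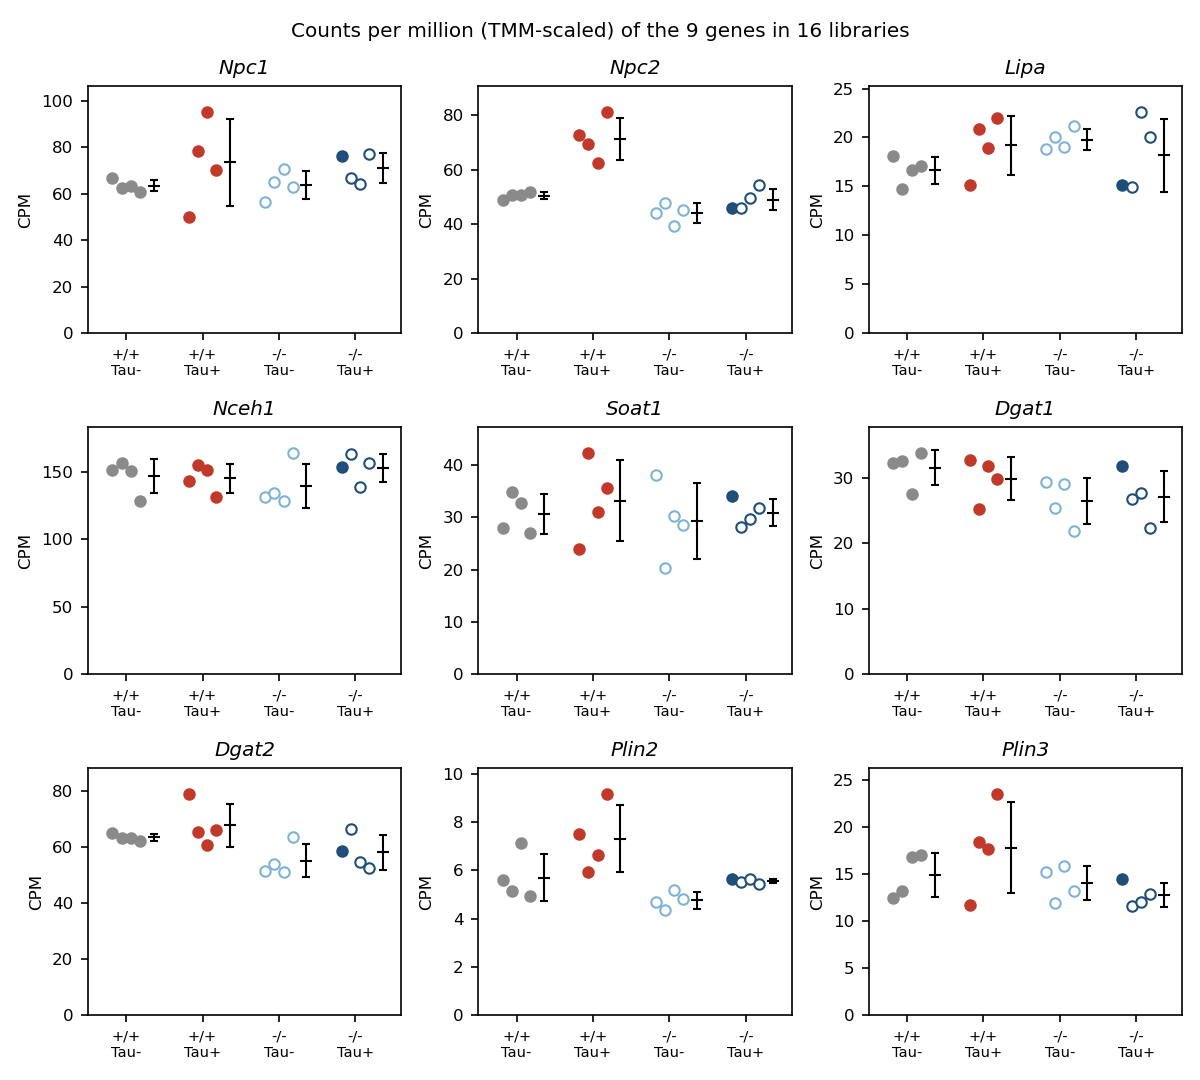
Normalised counts (CPM, TMM-scaled, linear axes from 0) of the 9 genes, 1 point per library, with the group mean and SD (n = 4) to the right of each group; open circles are rRNA-rich libraries. Npc2 in Ch25h+/+ Tau+ lies between 62.7 and 81.0 CPM, above every other library, while Npc1 in the same group runs from 50.2 to 95.1.

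Lipa, the lysosomal acid lipase that splits cholesteryl esters and triglycerides (chromosome 19, 34492318 to 34527474, minus strand), has its 3′ end 17.2 kb from Ch25h with no annotated gene in between. It measured 18.1, 14.7, 16.7 and 17.1 CPM in Ch25h+/+ Tau- and 18.8, 20.1, 19.04 and 21.1 CPM in Ch25h-/- Tau-. The latter libraries were all above the former. The log2 fold change was 0.25 (interval -0.03 to 0.53) and did not pass (edgeR adjusted p = 0.301). It was 0.07 after correction for GC content and -0.09 with library class as a covariate. The class term comes from Ch25h-/- Tau+ alone, where 1 library is rRNA-poor, so this turn of sign does not settle the direction. In Ch25h+/+ Tau+ Lipa measured 15.1, 20.8, 18.9 and 22.0 CPM and in Ch25h-/- Tau+ 15.2, 14.9, 22.6 and 20.05 CPM. Those groups overlapped almost fully, and the difference was -0.08 (interval -0.36 to 0.20), or -0.34 with library class as a covariate (adjusted p = 0.976). The gene next to the disrupted locus therefore gave no difference past the threshold in either tau status. The 95% interval in Tau+ leaves room for changes of up to 0.36 on the log2 scale downwards and 0.20 upwards.

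Nceh1, the neutral hydrolase that releases cholesterol from stored ester at the endoplasmic reticulum (chromosome 3, 27182965 to 27284608, plus strand), varied least between its lowest and highest library, by 1.28-fold. By group its values ran from 128 to 157, 131 to 155, 128 to 164 and 138 to 163 CPM. All 4 ranges overlapped. The estimates were -0.01, 0.13, -0.07 and 0.07 for tau with Ch25h, tau without Ch25h, Ch25h loss without tau and Ch25h loss with tau. After GC correction Ch25h loss gave -0.20 without and -0.04 with tau, which turns the latter sign. The 95% intervals before that correction reached no further than 0.32 from 0, so the data bound the change of Nceh1 more tightly than that of most of the 9 genes.

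Soat1, which esterifies cholesterol and is the enzyme most directly tied to the Ch25h product among the 9 (chromosome 1, 156424525 to 156474331, minus strand), showed no difference past the threshold. It measured 27.9, 34.9, 32.8 and 27.0 CPM in Ch25h+/+ Tau- and 24.0, 42.2, 31.0 and 35.7 CPM in Ch25h+/+ Tau+. In Ch25h-/- Tau- it measured 38.2, 20.4, 30.3 and 28.4 CPM and in Ch25h-/- Tau+ 34.0, 28.1, 29.6 and 31.9 CPM. The range inside each group exceeded every difference between group means. Ch25h loss gave -0.06 (interval -0.42 to 0.29) in Tau- and -0.11 (-0.46 to 0.25) in Tau+. Both signs turned with library class as a covariate, to 0.12 and 0.03, while GC correction gave -0.21 in each. The ratio of Lipa to Soat1 counts, ester release over ester synthesis, was 0.553 ± 0.107, 0.588 ± 0.0635, 0.713 ± 0.209 and 0.592 ± 0.136 in the 4 groups (SD, n = 4 each). These ratios overlapped between all groups.

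Dgat1 and Dgat2 catalyse the last step of triglyceride synthesis, Dgat1 at the endoplasmic reticulum and Dgat2 also at droplets. Dgat1 (chromosome 15, 76502015 to 76511953, minus strand) stood at 31.5 ± 2.72, 29.9 ± 3.32, 26.4 ± 3.48 and 27.1 ± 3.89 CPM by group (SD, n = 4 each). Dgat2 (chromosome 7, 99153658 to 99182719, minus strand) stood at 63.5 ± 1.19, 67.8 ± 7.71, 55.1 ± 5.90 and 58.1 ± 6.16 CPM in the same order. Both means were lower in each Ch25h-/- group than in its Ch25h+/+ counterpart, and the libraries overlapped. In Tau-, the differences of -0.26 (Dgat1) and -0.20 (Dgat2) had edgeR adjusted p-values of 0.226 and 0.220. In Tau+, -0.14 and -0.22 had edgeR adjusted p-values of 0.511 and 0.158. After correction for GC content the Tau+ differences were 0.02 and -0.06, and those in Tau- were -0.10 and -0.06. With library class as a covariate the sign for Dgat1 turned, to 0.06 in Tau- and 0.09 in Tau+, while Dgat2 stood at -0.19 and -0.21 (adjusted p of at least 0.976 for all 4). These are the 2 genes of highest GC content in the set, 56.5% and 56.3%. Dgat2 counts per Dgat1 count ran from 1.76 to 2.91 over all libraries with group means of 2.02 to 2.28.

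Plin2, the droplet coat protein that rises with lipid loading in many cell types (chromosome 4, 86648386 to 86670060, minus strand), was the least abundant of the 9, with 74 to 196 counts per library. With Ch25h it measured 5.59, 5.14, 7.12 and 4.94 CPM in Tau- and 7.51, 5.93, 6.65 and 9.15 CPM in Tau+. Without Ch25h it measured 4.70, 4.35, 5.18 and 4.80 CPM in Tau- and 5.63, 5.52, 5.63 and 5.43 CPM in Tau+. All 4 Ch25h+/+ Tau+ libraries lay above the 4 of Ch25h-/- Tau+, which in turn lay above those of Ch25h-/- Tau-. No edgeR test passed after adjustment. The tau effect with Ch25h was 0.36 (SE 0.15, unadjusted p = 0.0286, adjusted p = 0.428) and Ch25h loss in Tau+ was -0.39 (SE 0.15, unadjusted p = 0.0174, adjusted p = 0.125), both by edgeR. Without Ch25h the tau effect was 0.22 (SE 0.15, edgeR unadjusted p = 0.165). The decrease with Ch25h loss in Tau+ kept its sign in 25 of 25 other settings and passed in 0 of them. As a share of the microglial marker sum Plin2 stood at 2.34 ± 0.325%, 2.30 ± 0.343%, 2.03 ± 0.189% and 2.25 ± 0.163% in the 4 groups. The markers' part in the Plin2 differences was not tested.

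Plin3, a perilipin that moves from the cytosol onto small and new droplets (chromosome 17, 56277476 to 56292873, minus strand), measured 12.5, 13.2, 16.8 and 17.0 CPM in Ch25h+/+ Tau- and 11.6, 18.4, 17.6 and 23.4 CPM in Ch25h+/+ Tau+. In Ch25h-/- Tau- it measured 15.2, 11.9, 15.8 and 13.2 CPM and in Ch25h-/- Tau+ 14.5, 11.6, 11.99 and 12.9 CPM. Replicate 1 of Ch25h+/+ Tau+, at 11.6 CPM, lay with the Ch25h-/- libraries and the other 3 lay above every Ch25h-/- library. Ch25h loss in Tau+ gave -0.48 (SE 0.17, edgeR adjusted p = 0.0997). It passed with limma-voom and its library weights (-0.63, adjusted p = 0.0141) and in edgeR without Ch25h+/+ Tau+ replicate 1 (-0.64, adjusted p = 0.0307), and in none of the other 23 settings. It stood at -0.33 without Ch25h+/+ Tau+ replicate 4 (edgeR adjusted p = 0.292) and -0.43 after GC correction (edgeR adjusted p = 0.197). With library class as a covariate it was -0.30 (edgeR adjusted p = 0.976). The rRNA-poor libraries alone, which hold 1 Ch25h-/- Tau+ library, gave the same -0.30. The Plin2 to Plin3 count ratio was 0.388 ± 0.0694, 0.434 ± 0.144, 0.342 ± 0.0284 and 0.439 ± 0.0406 in the 4 groups.

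Set side by side, Npc2 was the 1 gene of the 9 that passed the test in any comparison. For tau in Ch25h+/+, 1 of 9 passed (Npc2, higher), where 1.56% of all genes tested passed and 1.47% did so upwards. Unadjusted p-values fell under 0.05 for 2 of 9 (Npc2 and Plin2) against 9.38% of all genes. The groups did not overlap for 1 of 9 against 5.86%. The median log2 fold change was 0.21 for the 9 and -0.01 for all genes, with 7 of 9 above 0 against 47.8% of all genes. For tau in Ch25h-/-, 0 of 9 passed in edgeR, where 0.0395% of all genes passed. DESeq2 and limma-voom also called 0, and 0 of 9 had an unadjusted p under 0.05 (3.68% of all genes). Only the Plin2 groups did not overlap (2.14% of all genes), and the median was 0.08 against 0.01.

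For Ch25h loss in Tau-, 0 of 9 passed in edgeR, where 1.03% of all genes passed, and DESeq2 and limma-voom called 0 as well. Npc2, Dgat1 and Dgat2 had unadjusted p-values under 0.05, 3 of 9 against 20.9% of all genes. Lipa (higher) and Npc2 (lower) had groups that did not overlap, 2 of 9 against 16.2%. For Ch25h loss in Tau+, 1 of 9 passed (Npc2, lower), where 3.55% of all genes passed and 2.40% did so downwards. Npc2, Plin2, Plin3 and Dgat2 had unadjusted p-values under 0.05, 4 of 9 against 23.9%. Npc2 and Plin2 had groups that did not overlap, 2 of 9 against 10.2%. Medians over the 9 were -0.09 in Tau- and -0.14 in Tau+, against 0.01 and 0.00 for all genes, and 1 of 9 was above 0 in Tau+ (Nceh1) against 50.7% of all genes. These signs were not stable: 4 of the 9 genes kept theirs in all other settings in Tau- and 5 in Tau+. For the interaction, 0 of 9 passed in edgeR and in DESeq2, where 0.0338% of all genes passed in edgeR, and 1 of 9 had an unadjusted p under 0.05 against 4.13%.

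**Figure D3:**
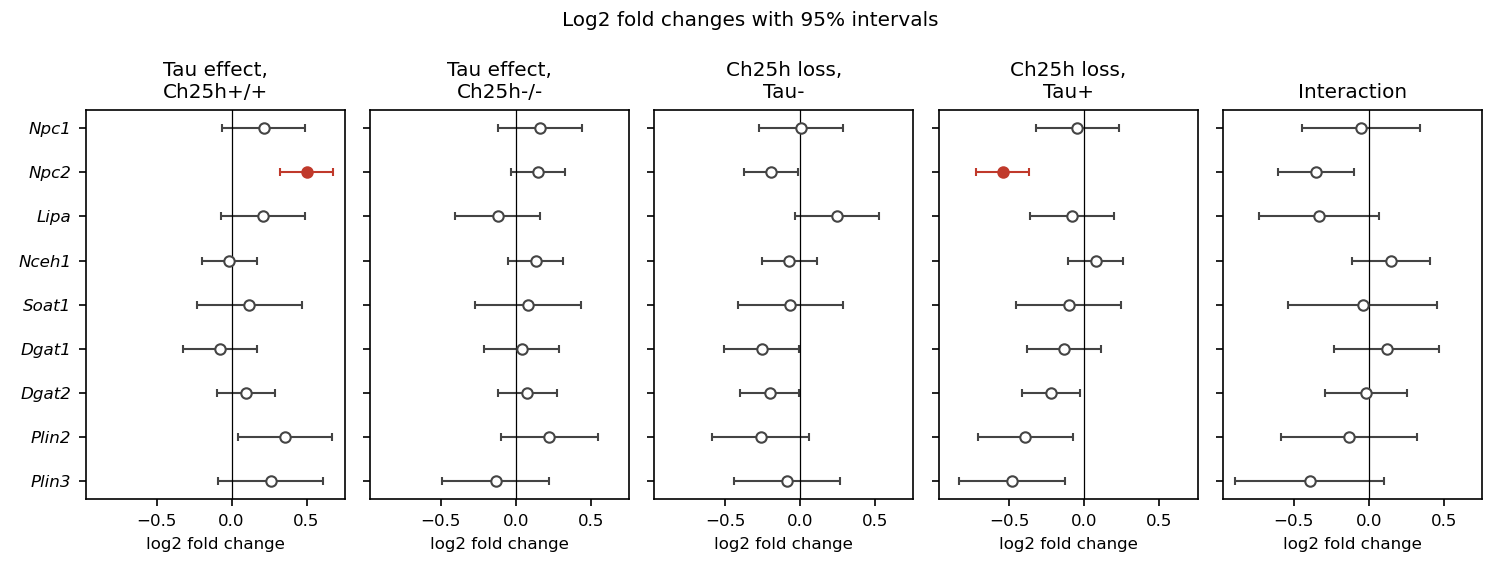
Log2 fold change of each gene with its 95% interval in the 5 comparisons; filled red points passed an adjusted p of 0.05 over all genes tested. Npc2 is the filled point in 2 panels, at 0.50 for tau in Ch25h+/+ and -0.55 for Ch25h loss in Tau+.

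The genes whose log2 CPM most resembled that of Npc2 over the 16 libraries were Ctsz (Pearson r = 0.958), Ctsd (0.949) and Cd63 (0.949). Ctsz and Ctsd encode lysosomal cathepsins and Cd63 a tetraspanin of late endosomes. Ctsz averaged 38.3, 72.1, 31.1 and 36.3 CPM in the 4 groups. Among the other 8 genes, Plin2 was nearest to Npc2 with r = 0.782. These correlations describe 16 libraries that share the same 4 groups and carry no test. Lipa most resembled Fgf2 (r = 0.942), and its nearest gene among the 9 was Plin3 with r = 0.306. The nearest genes were Phlpp1 for Npc1 (0.919), Nsf for Nceh1 (0.920), Acsf2 for Soat1 (0.818), Man2c1 for Dgat1 (0.922), Nrbp1 for Dgat2 (0.949), Def6 for Plin2 (0.903) and Slc41a1 for Plin3 (0.858). Apart from the Npc2 and Plin2 pair, nearest genes within the set reached r of 0.603 (Dgat2 with Npc2), 0.587 (Soat1 with Plin3) or less, so the 9 genes did not share 1 profile.

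**Figure D4:**
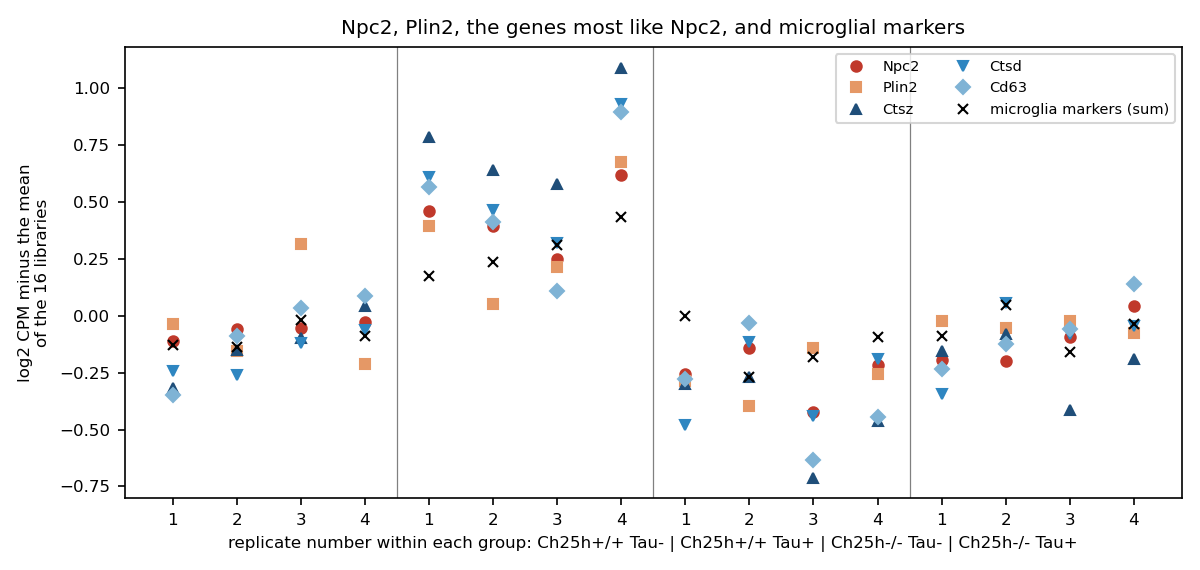
Log2 CPM of Npc2, Plin2, the 3 genes most like Npc2 and the microglial marker sum, each as the difference from its own mean over 16 libraries, by group and replicate number (replicates have no order). All 6 series lie above 0 in every Ch25h+/+ Tau+ library, and the microglial sum in that group ranges from 292 to 349 CPM.

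Genes of the surrounding pathways gave few calls. In the list of lipid droplet coat and assembly genes, 14 of 15 symbols were in the table and 11 were tested. Plin1, the perilipin of fat cells, was not tested, with 21 counts over all 16 libraries. In that list 0 genes passed in edgeR, DESeq2 or limma-voom for tau in either Ch25h genotype or for Ch25h loss in Tau-, with 2, 1 and 1 of 11 at an unadjusted edgeR p under 0.05 (9.38%, 3.68% and 20.9% of all genes). For Ch25h loss in Tau+, 1 of 11 passed, where 3.55% of all genes passed and 2.40% did so downwards. That gene was Cidea, which promotes droplet fusion. It fell by 1.10 on the log2 scale (SE 0.25, edgeR adjusted p = 0.0270), from 2.35 ± 0.296 to 1.09 ± 0.115 CPM, and stayed past the threshold in 16 of 24 other settings. The call was lost when any 1 of Ch25h+/+ Tau+ replicates 1 and 4 and Ch25h-/- Tau+ replicates 2, 3 and 4 was omitted (largest adjusted p = 0.0848), and with library class as a covariate (-1.20, adjusted p = 0.813). Summed adipocyte markers ran from 0.284 to 1.31 CPM over all libraries.

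In the list of 22 endosomal and contact site sterol transfer genes, 21 were tested and 1 passed, for Ch25h loss in Tau+, close to the 3.55% of all genes that did. Tau gave 0 calls in Ch25h+/+ in edgeR (4 of 21 at an unadjusted p under 0.05 against 9.38% of all genes, 1 called by DESeq2 and 2 by limma-voom) and 0 by each of the 3 tools in Ch25h-/- (0 unadjusted, against 3.68%). Ch25h loss in Tau- also gave 0 by each tool (2 of 21 unadjusted, against 20.9%). Osbpl8, which exchanges lipids between the endoplasmic reticulum and other membranes, rose with Ch25h loss in Tau+ from 88.2 ± 13.4 to 115 ± 9.63 CPM, by 0.38 on the log2 scale (SE 0.09, edgeR adjusted p = 0.0326), and passed in 16 of 25 other settings. Its GC-corrected estimate was 0.19 (adjusted p = 0.203), and with library class as a covariate 0.22 (adjusted p = 0.976). Omitting the same 5 libraries as for Cidea, which are replicates 1 and 4 of Ch25h+/+ Tau+ and 2, 3 and 4 of Ch25h-/- Tau+, ended its call each time (largest adjusted p = 0.118). Lamp1, a lysosomal membrane protein and the nearest to the threshold for tau in Ch25h+/+, differed by 0.24 (SE 0.07, edgeR adjusted p = 0.0992). Soat2, the second esterifying enzyme, had 53 counts over 16 libraries and was not tested.

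Of the lysosomal lipid hydrolysis list, 13 genes are reported and all 13 were tested. Their median for tau was 0.15 in Ch25h+/+ (-0.01 for all genes) and 0.09 in Ch25h-/- (0.01 for all genes). In Ch25h+/+ 0 of 13 passed in edgeR, with 4 of 13 at an unadjusted p under 0.05 against 9.38% of all genes. Hexa, a lysosomal glycosidase subunit, was nearest to the threshold there, at 0.32 (SE 0.10, edgeR adjusted p = 0.142). With Ch25h loss in Tau+, 2 of the 13 fell: Hexa by 0.45 and Pla2g15, a lysosomal phospholipase, by 0.38 on the log2 scale (edgeR adjusted p = 0.0198 and 0.0264), where 2.40% of all genes tested fell. They passed in 18 and 17 of 25 other settings. Neither passed with library class as a covariate (-0.36 for Hexa and -0.22 for Pla2g15, adjusted p = 0.976 for each) or after GC correction (-0.31 and -0.25, adjusted p = 0.0991 and 0.158). Both calls were lost without Ch25h+/+ Tau+ replicate 4 or without replicate 3 or 4 of Ch25h-/- Tau+, and that of Pla2g15 also without Ch25h+/+ Tau+ replicate 1 (largest adjusted p = 0.0816 for Hexa and 0.0874 for Pla2g15). Pla2g15 also fell with Ch25h loss in Tau-, by 0.42 (edgeR adjusted p = 0.0338), as 1 of 13 (1.03% of all genes passed), and passed in 14 of 24 other settings. That call was lost when Ch25h+/+ Tau+ replicate 4, any library of Ch25h+/+ Tau-, or replicate 1, 2 or 3 of Ch25h-/- Tau- was omitted (largest adjusted p = 0.140). It was also lost with the covariate (-0.20, adjusted p = 1) and after GC correction (-0.31, adjusted p = 0.211). Without Ch25h, tau gave 0 calls of 13 in edgeR, DESeq2 and limma-voom, with 1 gene at an unadjusted p under 0.05 (3.68% of all genes). Microglial marker sums were also higher with tau in Ch25h+/+ and lower with Ch25h loss in Tau+, and their part was not tested.

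Triglyceride synthesis and lipolysis gave no calls in edgeR. Of 18 synthesis genes 16 were tested, and 0 passed in any of the 5 comparisons. Unadjusted p-values under 0.05 numbered 4 of 16 for Ch25h loss in Tau- (20.9% of all genes), where DESeq2 and limma-voom called 2 each, and 3 of 16 for Ch25h loss in Tau+ (23.9%), where they called 0 and 1. These lie near the shares of all genes. Tau gave 1 such p-value of 16 with Ch25h (9.38%) and 0 without it (3.68%), and no call by either tool. The smallest adjusted p was for Gpat4, a glycerol-3-phosphate acyltransferase, with Ch25h loss in Tau- (-0.26, SE 0.07, edgeR adjusted p = 0.0694). It passed with DESeq2 (-0.25, adjusted p = 0.0141) and with limma-voom (-0.27, adjusted p = 0.0155), but not after GC correction (-0.24, adjusted p = 0.238), and with library class as a covariate it was -0.10 (adjusted p = 1). Of 11 lipolysis genes 9 were tested and 0 passed in edgeR. Unadjusted p-values under 0.05 numbered 3 of 9 for Ch25h loss in each tau status (the same shares of all genes), 2 of 9 for tau in Ch25h+/+ (9.38%) and 0 in Ch25h-/- (3.68%), and the other tools made calls only for Ch25h loss in Tau+ (1 with DESeq2 and 2 with limma-voom). Pnpla2, the main triglyceride lipase of droplets, was nearest with Ch25h loss in Tau+ (-0.38, SE 0.13, edgeR adjusted p = 0.0895) and passed with DESeq2 (-0.38, adjusted p = 0.0484). It stood at -0.21 after GC correction (adjusted p = 0.385) and -0.41 with the covariate (adjusted p = 0.976). Medians of these lists lay between -0.19 and 0.01 in the 4 pairwise comparisons. In the plot of pathway genes, the points that passed are Npc2, the lysosomal genes Hexa and Pla2g15, Cidea and Osbpl8.

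**Figure D5:**
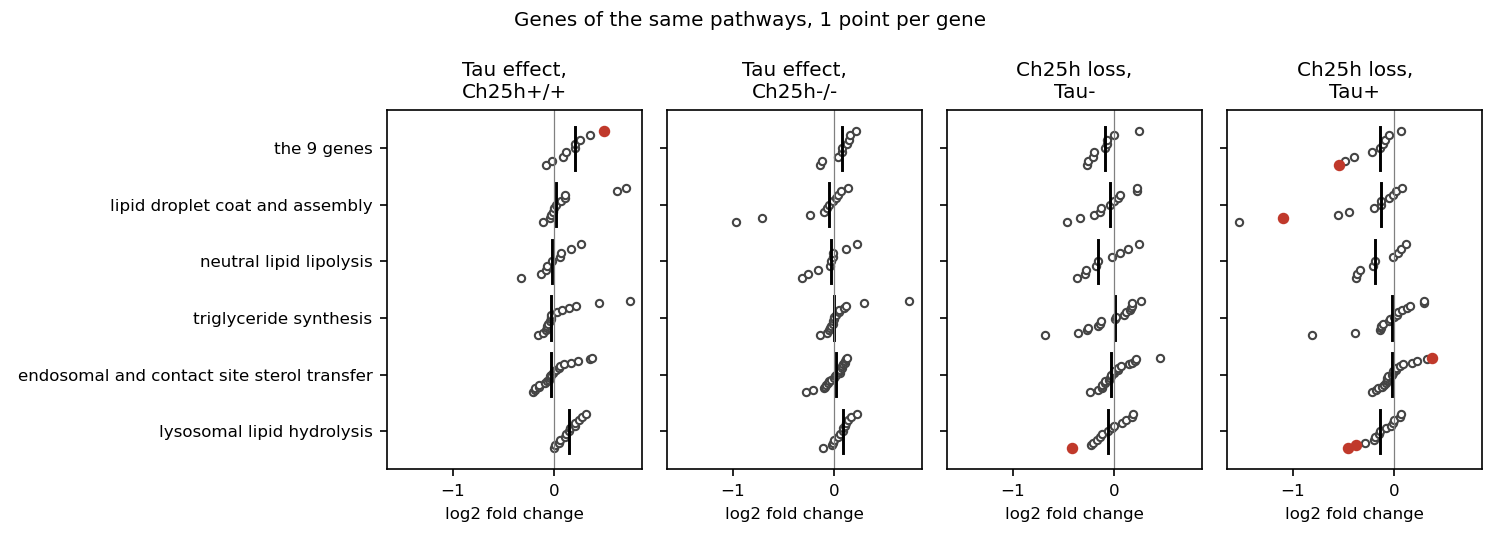
Log2 fold change of the 9 genes and of 5 further pathway lists in the 4 pairwise comparisons, 1 point per gene tested, with a black bar at the median of each list; filled red points passed an adjusted p of 0.05. For tau in Ch25h+/+ the lysosomal hydrolysis list (13 genes) has its median at 0.15, and with Ch25h loss in Tau+ it has 2 filled points, Hexa and Pla2g15.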

How the data were processed

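The authors deposited 1 table of raw counts per gene for 16 libraries, in whole numbers with no normalization. Per the submitters' processing notes STAR 2.7 and the builds GRCm38 and mm10 were used; the counting program, the annotation and the use of strand are not given in the sources used here. Per the labels' protocols, total RNA was made into libraries with a SMARTer mRNA kit. Genes were matched by symbol, of which 105 occur more than once in the table (none of the 9 genes). Positions, lengths and GC content came from GENCODE M21 (GRCm38). Genes were filtered with filterByExpr in edgeR 4.0.16 (R 4.3.3), which left 17736, and CPM were computed on TMM-scaled library sizes. Differences were tested with edgeR's quasi-likelihood test, two-sided, in a single model of the 16 libraries with 1 coefficient for each group, with Benjamini-Hochberg adjustment over all genes tested and a threshold of 0.05; the test was checked on simulated data. DESeq2 1.42.0, limma-voom (limma 3.58.1), other filters and scaling, GC-corrected offsets (GC known for 99.2% of the genes tested), a library class covariate, only the groups compared and leaving out each library were alternatives. Fits within 1 library class (rRNA entry above or below 1000 CPM) were added after seeing the data. The genes and lists were chosen with earlier results of these data known. All 9 genes were named in each comparison; of each pathway list, every gene past the threshold and otherwise the gene with the smallest p could be named, and for likeness the 3 genes with the highest correlation. Among pathway symbols, Spart was read as Spg20 and Ldaf1 was not matched. From the lysosomal hydrolysis list and from the cortical markers, 1 gene each is not reported here and was left out of the counts, medians and plots of its list. Library pairs within a group differed by at least 8.36 times the counting noise (chi-square per degree of freedom), so none was counted as a duplicate.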

Additional observations from a re-analysis of the deposited data

How the results depend on the processing

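No paired analysis was possible because replicate numbers only follow the order of the records. The call of Npc2 for tau in Ch25h+/+ held in all 25 alternatives, with log2 fold changes of 0.43 to 0.56. Those alternatives that only drop Ch25h-/- libraries leave the groups compared unchanged. Leaving out 1 library at a time, the decrease of Npc2 with Ch25h loss in Tau+ ranged from -0.61 to -0.49. It stayed past the threshold each time. The call was lost with the library class covariate and in the rRNA-poor libraries alone. Both of those estimates rest on the same 1 Ch25h-/- Tau+ library. Of the 9 genes, 6 kept their sign in all alternatives for each tau effect and for the interaction, 4 for Ch25h loss in Tau- and 5 for Ch25h loss in Tau+. The number of the 9 past the threshold for Ch25h loss in Tau+ was 1 in the main analysis, 2 with limma-voom, 0 with the covariate, 0 in the 9 rRNA-poor libraries, and 1 to 2 with a library left out (2 without Ch25h+/+ Tau+ replicate 1).

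Counts over all genes moved more. For tau in Ch25h+/+, 277 genes passed, against 424 with DESeq2, 498 with limma-voom and 160 to 299 with a library left out (lowest without Ch25h+/+ Tau+ replicate 4; leaving out replicate 1 of Ch25h+/+ Tau- gave 176). For tau in Ch25h-/-, 7 passed, against 28 with no filter, 2 with a mean of at least 50 counts, 14 with DESeq2 and 6 to 13 with a library left out (highest without Ch25h-/- Tau- replicate 4). For Ch25h loss in Tau-, 182 passed, against 522 with no filter, 1124 with DESeq2, 1388 with limma-voom, 0 with the covariate, 12 after GC correction, 1229 in the 2 groups alone and 3 to 1306 with a library left out (replicate 1 of Ch25h+/+ Tau- for the lowest and of Ch25h+/+ Tau+ for the highest). For Ch25h loss in Tau+, 629 passed, against 1494 with DESeq2, 1883 with limma-voom, 10 with the covariate, 191 after GC correction, 106 in the 2 groups alone, 3 in the rRNA-poor libraries and 108 to 1691 with a library left out (Ch25h+/+ Tau+ replicate 4 for the lowest, Ch25h-/- Tau+ replicate 1 for the highest). For the interaction 6 passed, against 57 with no filter, 55 with DESeq2, 3 with the covariate and 0 to 22 with a library left out (0 when Ch25h-/- Tau+ replicate 3 or 4 was omitted, 22 for Ch25h+/+ Tau+ replicate 1). The cause of these shifts was not tested. Plin2 had the lowest counts of the 9, with as few as 74 in a library.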
